A study of Mus musculus with 2 samples.

Results

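Nos2 encodes the inducible nitric oxide synthase, and the 9 genes described here are those that feed, support or compete with this enzyme for arginine, together with Acod1, whose product makes itaconate. They are Nos2, Slc7a2, Ass1, Asl, Gch1, Arg1, Arg2, Odc1 and Acod1, an enzyme gene formerly called Irg1. The genes were chosen by name, and every non-control probe whose accession belonged to one of them was taken, which gave 13 probes for 9 of the 20659 named genes on the array. The data were 2 one-colour Agilent arrays of total RNA from RAW246.1 cells, labelled as macrophages and grown in DMEM. One culture had received synthetic miR-122 at a stated 5 μg/mL and the other PBS as the mock treatment, with 1 array for each, so the spread between cultures is unknown for every difference below and no p-value is given. The title of the miR-122 sample reads as if the microRNA had been omitted and both samples carry the same treatment text, so the direction of every difference rests on the source name and the description of the sample.

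Macrophages use arginine in competing ways. Nitric oxide synthase turns it into nitric oxide and citrulline, with tetrahydrobiopterin as a cofactor, and arginases turn it into ornithine, from which ornithine decarboxylase starts the synthesis of polyamines. Argininosuccinate synthase and lyase rebuild arginine from citrulline, and cationic amino acid transporters bring it in from the medium. Itaconate is drawn from the citrate cycle by a decarboxylase that activated macrophages make in quantity. In mouse macrophages Nos2 and Acod1 are classic genes of activation by bacterial products and interferons, whereas Arg1 is a marker of alternative activation.

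Nos2, Gch1 and Acod1 exceeded 2-fold in favour of the miR-122 array, while Ass1, Arg2 and Odc1 were higher and Asl lower by less than 2-fold. Arg1 was not well above background on either array, and Slc7a2 was so on the PBS array only. Of the 9 genes, 7 could therefore be compared, and 3 of these reached 2-fold higher and 0 reached 2-fold lower. Among all 15017 named genes measured above background on each array, 4.57% reached 2-fold higher and 1.78% reached 2-fold lower, or 6.36% in either direction. The 9 genes were chosen with earlier results of these data known, so setting these shares beside the 9 genes is no test. In such bulk samples, fewer expressing cells and less RNA per cell cannot be told apart. The median log2 difference was 0.69 over the 7 genes and 0.09 over all 15017 genes. These counts were taken after each array had been scaled to its 75th percentile, which was 348 signal units on the miR-122 array and 421 on the PBS array. Acod1 was under 2-fold with median scaling, quantile normalization, loess, the authors' log2 values and no scaling. In these settings 2 of 7 genes were past 2-fold, and the authors' values nearly matched quantile normalization. The split over all genes depended on the scaling too, with 687 higher and 268 lower in the scaling used here and 471 higher and 456 lower with median scaling.

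The proximal promoters of Acod1 and Gch1, both past 2-fold, are shown because letters resembling binding sites of inflammatory factors can be read in them. The RefSeq promoter table for GRCm38.p6 was matched for 4 of the 9 genes, Acod1, Gch1, Ass1 and Odc1. The 250 bases before the start of Acod1 lie at chr14:103046762-103047011 on the plus strand, and those of Gch1 at chr14:47189414-47189663 on the minus strand. Capitals mark matches, on either strand, to 8 motifs chosen after the sequences were seen.
Acod1: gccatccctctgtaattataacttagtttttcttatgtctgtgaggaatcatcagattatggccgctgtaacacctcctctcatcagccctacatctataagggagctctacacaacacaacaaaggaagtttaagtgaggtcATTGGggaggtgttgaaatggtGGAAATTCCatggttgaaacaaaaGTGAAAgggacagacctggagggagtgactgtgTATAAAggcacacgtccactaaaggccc
Gch1: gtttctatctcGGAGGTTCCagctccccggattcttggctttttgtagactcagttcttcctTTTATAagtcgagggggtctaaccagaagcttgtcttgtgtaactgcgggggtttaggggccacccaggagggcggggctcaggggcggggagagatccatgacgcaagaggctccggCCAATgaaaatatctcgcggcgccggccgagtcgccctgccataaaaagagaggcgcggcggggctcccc

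In Acod1 the TATA box letters TATAAA began 28 bases before the start, the IRF core GTGAAA 61 bases before it, and an NF-kB core, searched as GGNNNTTCC, 85 bases before it, where the letters match on both strands. The CCAAT letters lay on the minus strand, 107 bases before the start. In Gch1 the CCAAT letters began 70 bases before the start, TATAAA on the minus strand 188 bases before it and an NF-kB core 239 bases before it. In the windows of Ass1 and Odc1 the search found 1 match, the E-box CACGTG 36 bases before the start of Ass1. The motifs were chosen after the sequences were seen and Nos2 was not matched, so whether such letters go with the differences was not tested. The interferon motif GAAANNGAA, the GAS motif TTCNNNGAA and the AP-1 motif TGANTCA were not found in these 4 windows. Over 32851 promoter windows of the same length, 12.4% held TATAAA, 11.1% GTGAAA, 15.7% GGNNNTTCC, 33.8% CCAAT, 6.02% CACGTG, 7.13% GAAANNGAA, 7.02% TTCNNNGAA and 6.75% TGANTCA. The share of G and C was 44.4% in Acod1, 59.2% in Gch1, 75.6% in Ass1 and 80.0% in Odc1, against a median of 52.4% over all windows. GTGAAA and GAAANNGAA share the letters GAAA, so a site can match both. A match of letters is a description of the sequence and not a measurement of binding.

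Nos2, the enzyme that makes nitric oxide in activated macrophages, had a processed signal of 32904 on the miR-122 array and 11342 on the PBS array. The signal was thus high on both arrays and higher with miR-122. Scaled to the 75th percentile, the log2 level was 6.56 on the miR-122 array and 4.75 on the PBS array, a log2 difference of 1.81 or 3.51-fold. Of all named genes measured on both arrays, 99.0% had a smaller difference. Over 7 ways of processing the values the log2 difference of Nos2 lay between 1.54 and 1.81, and its single probe stayed past 2-fold in each.

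On the PBS array the Nos2 signal was 1053 times the lowest signal that the scanner software called well above background, which was 10.8 units there. Nos2 transcripts are scarce in resting mouse macrophages, so this level is given as a possible sign of activation in the mock culture. Acod1 was 3885 times that lowest signal on the PBS array. Of the Gch1 probes, the brighter was 786 times that lowest signal there and the dimmer 1.66 times, so such a ratio depends on the probe. The signals of the inflammatory genes Tnf and Ccl2 were 16662 and 64367 on the miR-122 array, against 7178 and 26533 on the PBS array. In contrast, the interferon beta gene Ifnb1 and the cytokine gene Il6 had signals of 3227 and 1837 on the miR-122 array, against 29.9 and 32.5 on the PBS array. Whether the PBS culture was itself activated was not tested, since these were the only conditions measured here.

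**Figure D1:**
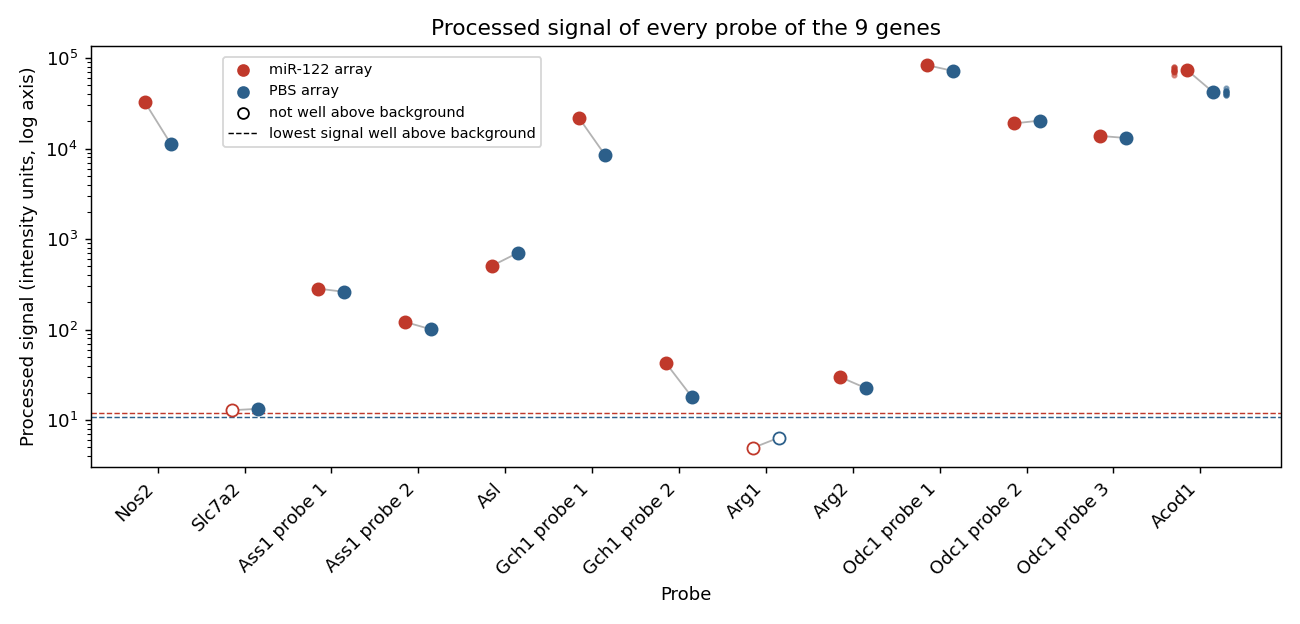
Processed signal, in intensity units on a log axis, of the 13 probes of the 9 genes on the miR-122 array (red, left of each pair) and the PBS array (blue, right); open circles did not pass the background flag, dashed lines are the lowest signals that did, and small dots beside Acod1 are its 10 spots on each array. Nos2, both Gch1 probes and Acod1 slope down toward the PBS array, and Arg1 lies under both dashed lines; heights of different probes cannot be compared.

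Gch1, which encodes GTP cyclohydrolase, the enzyme that commits GTP to tetrahydrobiopterin synthesis, was represented by 2 probes of very different brightness. The brighter probe had a signal of 21739 on the miR-122 array and 8465 on the PBS array, and was 3.11-fold higher after scaling. The dimmer probe had a signal of 42.5 on the miR-122 array and 17.9 on the PBS array, and was 2.88-fold higher. Both probes were therefore higher with miR-122, although the dimmer one was 1.58-fold higher with normexp background correction. The log2 difference of the brighter probe lay between 1.36 and 1.64 over the 7 ways of processing.

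The arginine transporter gene was at the background of the arrays. Slc7a2, the cationic amino acid transporter known to carry arginine for nitric oxide synthesis in activated mouse macrophages, had a signal of 12.8 on the miR-122 array and 13.3 on the PBS array. Only its PBS signal passed the background flag, at 1.23 times the lowest signal that did, so no fold is given. The probe carries the accession of 1 of several Slc7a2 transcripts, and where on it the probe lies was not analysed here.

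Ass1 and Asl encode the enzymes that regenerate arginine from citrulline, and their log2 differences had opposite signs but were all under 2-fold. The brighter Ass1 probe had a signal of 283 on the miR-122 array and 261 on the PBS array, a log2 difference of 0.39, and the dimmer one 121 and 100.3, a log2 difference of 0.55. Both differences were positive and under 2-fold, and over the 7 ways of processing that of the brighter probe lay between 0.12 and 0.39. Asl had a signal of 507 on the miR-122 array and 709 on the PBS array, a log2 difference of -0.21 that lay between -0.48 and -0.08 over the same settings. Both genes had signals far enough from background for the comparison, at 24.2 times the lowest detected signal for Ass1 and 65.8 times for Asl, both on the PBS array.

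The arginase genes were at or near the background of the arrays. Arg1, the cytosolic arginase, had a signal of 4.91 on the miR-122 array and 6.38 on the PBS array, neither well above background. A bound for the change of Arg1 cannot be given from such signals. Arg2, the mitochondrial arginase, had a signal of 30.0 on the miR-122 array and 22.5 on the PBS array. This was 1.61-fold higher after scaling, and 1.35-fold with normexp, at a PBS signal 2.09 times the lowest detected one. The error model of the scanner software gave an error of 13.7% for the Arg2 signal on the miR-122 array and 15.1% on the PBS array.

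Odc1, the ornithine decarboxylase gene at the entry of polyamine synthesis, was bright on both arrays by 3 probes. The brightest had a signal of 83910 on the miR-122 array and 72448 on the PBS array, a log2 difference of 0.49. The other probes had signals of 18971 and 13814 on the miR-122 array and of 20406 and 13098 on the PBS array, log2 differences of 0.17 and 0.35. All 3 differences were positive in the scaling used and under 2-fold, and the smallest turned negative with median scaling, quantile normalization, the authors' values and no scaling, reaching -0.11 without scaling. The differences of the Odc1 probes had a standard deviation of 0.16, against a pooled value of 0.30 over 3575 genes with several probes.

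Acod1, the cis-aconitate decarboxylase that makes itaconate, was printed in 10 spots on each array. On the miR-122 array the spots had signals from 64768 to 80371 with a median of 73717, and on the PBS array from 38693 to 46491 with a median of 42180. The spots of the arrays did not overlap, which speaks only for the precision within an array, since all spots of an array share 1 RNA sample. The log2 signal varied over the spots by a standard deviation of 0.09 on the miR-122 array and 0.08 on the PBS array. After scaling, Acod1 was 2.13-fold higher, with a log2 difference of 1.09. This lay close to the 2-fold line, and over the 7 ways of processing the log2 difference was between 0.81 and 1.09. No spot on either array was saturated, so the bright signals of Acod1 and Odc1 were not limited in that way.

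**Figure D2:**
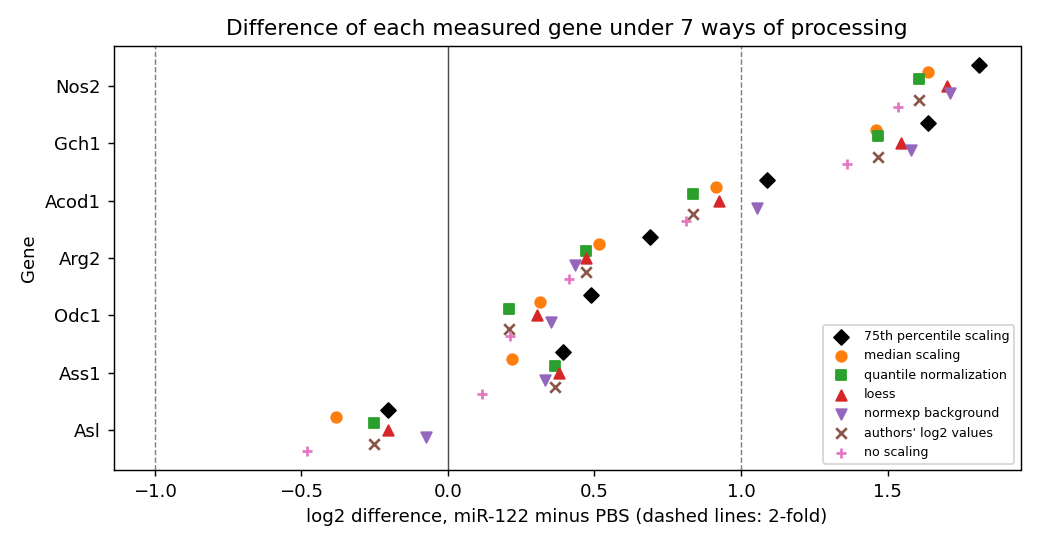
Log2 difference, miR-122 minus PBS, of the 7 genes measured on both arrays, by the brightest probe of each gene, with 1 symbol for each of 7 ways of processing the signals; dashed lines mark 2-fold. Nos2 lies between 1.54 and 1.81 and Gch1 between 1.36 and 1.64, beyond the line in each setting, Acod1 straddles it, and the other genes stay inside it.

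In the distribution of all genes, 98.6% of the named genes had a smaller difference than Gch1, 96.2% than Acod1, 91.1% than Arg2, 83.9% than Odc1, 78.6% than Ass1 and 21.3% than Asl. The differences nearest to that of Nos2 over the 2 arrays, outside the 9 genes, were those of Slfn2, Themis2 and Oas1g, at log2 differences of 1.81 each. Nearest to Acod1 were Dusp8, Dcp2 and Stx3, at 1.09 each. With 2 arrays this likeness is a single number for each gene, and many genes lie close to any value.

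**Figure D3:**
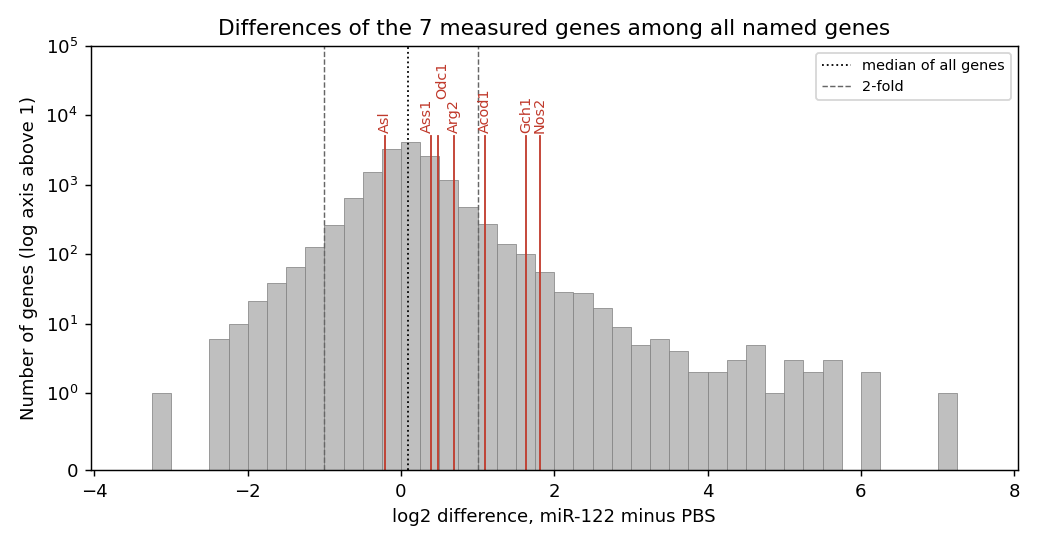
Number of named genes (log axis above 1) by log2 difference, miR-122 minus PBS, in bins of 0.25, with the 7 measured genes as red lines, 2-fold as dashed lines and the median of all genes, 0.09, as a dotted line. Nos2 and Gch1 stand in the upper tail, Acod1 just past the 2-fold line, and Asl on the negative side of the median.

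Other genes of the same metabolism were taken from 7 lists of 73 genes, of which 65 were measured on both arrays, and the regulators of Nos2, Arg1 and Acod1 from another list. Of the 65 metabolic genes, 2 reached 2-fold higher and 1 reached 2-fold lower, or 3.08% and 1.54%, beside 4.57% and 1.78% over all genes. Their median log2 difference was -0.08, against 0.09 for all genes. With normexp 2 reached 2-fold higher and 0 reached 2-fold lower.

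Among 7 transport genes, 1 reached 2-fold higher and 1 reached 2-fold lower. Slc7a8, a neutral amino acid transporter, was 2.70-fold higher. Slc7a6, which exchanges cationic for neutral amino acids, was 2.01-fold lower, with a log2 difference of -1.01, or -0.69 with normexp. Slc7a3, an arginine transporter, and Slc3a2, the heavy chain shared by several transporters, had differences of 0.79 and 0.64. Slc7a3 was dim, with signals of 35.7 on the miR-122 array and 24.9 on the PBS array. With normexp its difference was 0.37, and that of Slc3a2 was 0.59. Slc7a1, the broadly expressed arginine transporter and named after its values were seen, had signals of 3767 on the miR-122 array and 6269 on the PBS array and a difference of -0.46. The transport genes thus went both ways, and their median of 0.28 lay between 0.00 and 0.28 over the settings.

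In the polyamine list, 1 of 12 measured genes reached 2-fold higher and 0 reached 2-fold lower. Sat1, which acetylates polyamines for breakdown and export, had a signal of 33350 on the miR-122 array and 14448 on the PBS array, 2.80-fold higher. Smox, the spermine oxidase gene, had a difference of 0.83 by its brightest probe, and another of its probes differed by 1.14, past 2-fold. Srm, which encodes spermidine synthase, had a signal of 600 on the miR-122 array and 1410 on the PBS array, 1.94-fold lower, and it was past 2-fold lower with median scaling. Mtap, which salvages methylthioadenosine left by polyamine synthesis, had a difference of -0.64. The oxidase gene Paox, the spermine synthase gene Sms and the antizyme gene Oaz1, picked with their values known, had differences of -0.36, -0.10 and 0.02, so genes of polyamine breakdown went both ways.

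Genes around tetrahydrobiopterin other than Gch1 lay close to no change. Of 6 measured genes, 0 were past 2-fold in either direction, and the log2 differences ran from -0.29 for Spr, the sepiapterin reductase gene that completes synthesis, to 0.32 for Pts, which acts between Gch1 and Spr. Qdpr and Pcbd2, of cofactor recycling, had differences of 0.25 and -0.14. Gchfr, which encodes the feedback regulator of GTP cyclohydrolase and was named after its values were seen, differed by -0.09.

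The other nitric oxide synthase genes differed by less than 2-fold. The neuronal Nos1 and endothelial Nos3 had log2 differences of 0.24 and 0.25. Nos1 was dim, with signals of 17.0 on the miR-122 array and 17.4 on the PBS array. Its difference turned to -0.05 with quantile normalization and with loess, and was 0.25 with normexp. Nosip and Nostrin, which encode proteins that bind the endothelial enzyme, had differences of 0.26 and -0.08. The soluble guanylate cyclase genes Gucy1a1 and Gucy1b1, whose product senses nitric oxide, were not well above background on either array. Another Nos3 probe differed by -0.35, so the probes of that gene disagreed.

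Among 8 measured genes of the urea cycle and other arginine users, 0 were past 2-fold, and the median was -0.23. Gatm and Gamt, genes of creatine synthesis, which starts from arginine, had differences of -0.71 and -0.34, the ornithine carrier gene Slc25a15 -0.33 and Azin2 0.37. Slc25a15 was dim, and its difference turned to 0.14 with normexp. Proline and ornithine genes also had 0 of 5 past 2-fold, with a median of -0.21, and Prodh, Oat and Aldh18a1 had differences of 0.60, -0.31 and 0.28. These lists lay slightly below the median of all genes, and each list median kept its sign over the settings.

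Around itaconate, the citrate cycle genes showed no difference of the size of that of Acod1. Of 22 measured genes, 0 were past 2-fold in either direction, 14 had negative and 8 positive differences, and the median was -0.15. The split depended on the scaling, with 21 negative and 1 positive and a median of -0.33 with median scaling, and 21 negative and 1 positive and a median of -0.43 without scaling. The isocitrate dehydrogenase genes Idh1 and Idh3a had differences of -0.54 and -0.44, the cytosolic aconitase gene Aco1 0.60, and Clybl, whose product acts in the breakdown of itaconate, -0.53, or -0.07 with normexp. The succinate dehydrogenase genes, whose enzyme itaconate inhibits, were also looked up after their values were seen, and Sdha, Sdhb, Sdhc and Sdhd had differences of -0.16, 0.13, 0.10 and -0.16.

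**Figure D4:**
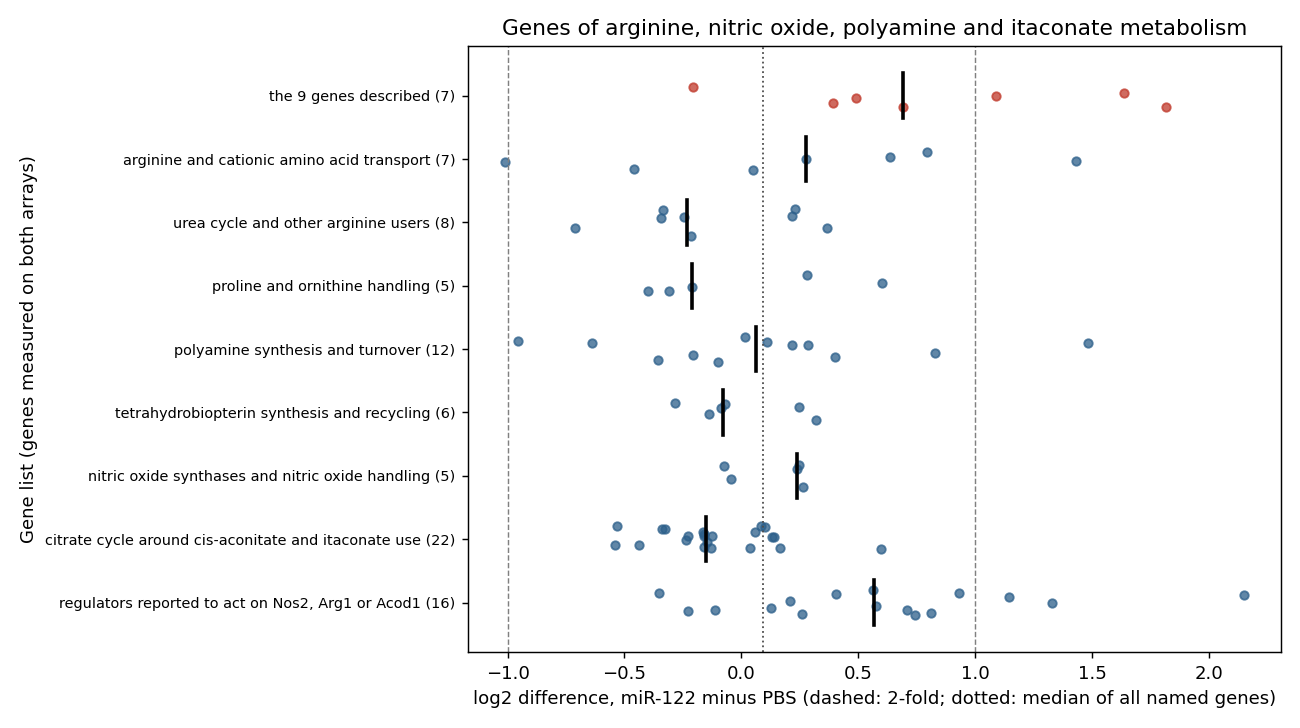
Log2 difference, miR-122 minus PBS, of the 7 measured genes of the 9 (red) and of the genes of 8 related lists (blue; the number measured on both arrays in brackets), with a black bar at the median of each list, dashed lines at 2-fold and a dotted line at the median of all named genes. The medians are 0.69 for the 9 genes and 0.57 for the list of regulators, and the citrate cycle genes lie between -0.54 and 0.60.

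Regulators reported to act on Nos2, Arg1 or Acod1 had a median log2 difference of 0.57 over 16 measured genes, with 13 positive and 3 negative. Of all named genes, 60.3% had positive differences in this scaling. Past 2-fold were 3 higher and 0 lower regulators, so 18.8% were higher, beside 4.57% of all genes. The list was chosen with earlier results of these data known, so setting these shares side by side is no test. With normexp, Irf1 alone of the 3 stayed past 2-fold. Irf1, an interferon regulatory factor needed for Nos2 induction in mouse macrophages, had a signal of 5783 on the miR-122 array and 1582 on the PBS array, 4.43-fold higher. Il4ra, the interleukin 4 receptor chain that leads to Arg1 in alternative activation, was 2.51-fold higher, which normexp reduced to 1.95-fold, and another of its probes differed by 0.61. Jak2, a kinase of cytokine receptors, was 2.21-fold higher, but 1.95-fold with median scaling and 1.99-fold with normexp. Cebpd was 1.90-fold higher. Also linked to Arg1, and picked with their values known, Stat6 and Pparg had differences of 0.12 and -0.35.

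The arrays were checked for the labelled cell type. Of 8 macrophage markers, 7 had a probe, and all 7, Adgre1, Csf1r, Lyz2, Itgam, Ptprc, Spi1 and Fcgr1, were well above background on both arrays. Their differences ran from -0.85 for Itgam, another probe of which differed by 0.36, to 3.34 for Fcgr1, or 2.39 with normexp, and their summed signal was 29020 on the miR-122 array and 56840 on the PBS array. The Csf1r probe made up 76.7% of that sum on the miR-122 array and 81.3% on the PBS array, and another Csf1r probe differed by -0.06. Of 6 hepatocyte markers, Alb, Apoa1 and Otc were not well above background on either array, Ttr was so with PBS only, and Fgb and Cps1 were so on both at signals of 15.7 and 16.4 on the miR-122 array and of 12.9 and 17.1 on the PBS array. Some markers of other cell types were brighter, among them the neutrophil genes Elane and S100a8 and the T cell gene Cd4. Their signals were 1334, 630 and 676 on the miR-122 array and 1532, 599 and 788 on the PBS array. The rest of the neutrophil and the T and NK cell markers with a probe were dimmer. Mpo, Camp, Cd3e and Ncr1 had signals of 34.4, 59.2, 146 and 14.6 on the miR-122 array. On the PBS array these were 28.9, 46.3, 230 and 11.4. S100a9 and Cd8a passed the background flag with PBS only, and Cd3g on neither array. Of 4 dendritic cell markers, Zbtb46 was 8.51-fold higher, or 1.77 on the log2 scale with normexp, Flt3 differed by 0.22, and Xcr1 and Clec9a were not well above background on either array; the part of these values in the differences of Nos2, Gch1 and Acod1 was not tested. Treatment and the position of the array cannot be told apart. The reference genes Actb and Gapdh differed by 0.21 and 0.18, and both signs turned with other scalings.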

How the data were processed

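Each of 2 samples gave 1 array, grouped by source name. Per the file headers, the deposited intensity values were made by the authors with Agilent Feature Extraction 11.0.1.1, background-subtracted and detrended, with no normalization between arrays. The deposited log2 table of the authors has no stated normalization. Its columns share a median of 5.17. Over probes they correlated at 0.997 with the scanner signals of their own array and at 0.985 with the other. The table is therefore log2 and runs as labelled. Its differences nearly equalled those of the quantile normalization done here, at 1.61 for Nos2 and 0.84 for Acod1 in both. These 2 settings are therefore not separate checks.

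Of 44397 spots, 1377 controls were left out, as were 196 flagged spots on the miR-122 array and 145 on the PBS array. Log2 processed signals were averaged per probe and scaled by subtracting the 75th percentile of the non-control probes. Well above background were 27568 probes on the miR-122 array and 28302 on the PBS array, of 39429. Accessions were matched without versions to a RefSeq table of GRCm38.p6, used for names, and 27234 probes matched. For each gene the brightest probe was used, of those passing the background flag on either array. Having 1 array in each group, no test was possible, a fixed size of 2-fold was used, and precision is limited by the number of arrays. Among 276 probes printed in 10 spots, the median standard deviation of log2 signals was 0.06 on the miR-122 array and 0.05 on the PBS array.

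The 9 genes and the lists were chosen with earlier results of these data known. The rule for named genes took the 9 genes, up to 4 genes with the largest absolute difference in each list, Ifnb1, Il6, Tnf, Ccl2, Actb, Gapdh, the macrophage markers, and the 3 genes nearest to Nos2 and to Acod1 by difference; exceptions are stated as such, and some genes that the rule takes are not reported here. Alternatives were other scalings, normexp with an offset of 50, loess with a span of 0.3, the authors' values, other probe rules and thresholds of 1.5-fold and 4-fold. The count at 2-fold was run on simulated data for miR-122 over PBS across 15017 genes with spot noise only. A simulated log2 difference of 1.5 was counted in 100% of 40 genes, and one of 0.7 in 0 of 40. This checks only the counting. Spot noise was small beside these distances from 2-fold, and the unknown spread between cultures was not simulated. R 4.3.3 with limma 3.58.1 and Python 3.11.15 with numpy 2.4.6 and pandas 2.3.3 were used.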

Additional observations from a re-analysis of the deposited data

How the results depend on the processing

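The differences of the 7 measured genes kept their sign under 9 alternatives, and each moved by less than 0.30, the standard deviation between probes of a gene. With median scaling and no scaling every gene moves by the same amount, so this is no separate result for each gene there. Nos2 and Gch1 stayed past 2-fold under the 9 alternatives. Acod1 was past 2-fold in 4 of the 9 alternatives. It was under 2-fold with median scaling, quantile normalization, loess, the authors' values and no scaling, the last chosen after seeing the data. Quantile normalization and the authors' values are nearly the same setting. At 4-fold 0 of the 7 genes were counted, and at 1.5-fold 4.

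Over all genes measured, median scaling counted 3.04% as lower, normexp 2.59% as higher and 0.946% as lower, no filter on dim probes 6.57% and 2.18%, no scaling 2.62% and 3.86%, a threshold of 1.5-fold 12.1% and 5.99%, and one of 4-fold 0.812% and 0.113%. Relative to the scaling used, the median of all genes moved by -0.18 with median scaling, by -0.12 with quantile normalization and by -0.28 without scaling. In the related lists, lower genes numbered 2 with median scaling, without scaling and without the filter; normexp gave 3 higher and 0 lower, 1.5-fold 14 and 4, and 4-fold 1 and 0. Median scaling and no scaling move every difference by 1 fixed amount, -0.18 and -0.28 here, so their changes in counts follow by arithmetic. The cause of the other changes was not tested, except that fewer genes pass a larger threshold and more genes enter without a filter. Signals near background, those of Arg1, Slc7a2 and Arg2 among them, limit what can be compared. No paired analysis was possible because each group holds 1 sample.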
